A study of Homo sapiens with 6 samples.

Results

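GPNMB, the 4 MiT/TFE transcription factor genes (TFEB, TFE3, MITF and TFEC) and 5 genes of the lysosomal Rag-folliculin branch (FLCN, FNIP1, FNIP2, RRAGC and RRAGD) were followed in U-937 cells that carried a guide RNA against METTL1 or a control guide. They were taken by gene symbol, 10 of the 26902 rows of the expression table, and 9 of them were among the 12449 genes tested, those that reached 1 in 3 or more of the 6 libraries. U-937 is a human leukemia line with monocytic features, which the labels call AML with a KMT2A-MLLT10 fusion. That fusion is the labels' statement only and was not checked in these data. Every library came from a single Cas9-expressing clone transduced with a lentiviral guide, selected with 10 µg/ml blasticidin and 200 µg/ml hygromycin, and harvested at day 8 to 10. The groups were sgNS, the control guide, and sgMETTL1.3, a guide against METTL1, which encodes a tRNA N7-methylguanosine methyltransferase, with 3 libraries in each. With 1 METTL1 guide and no rescue, loss of METTL1 and other actions of that guide cannot be told apart. Whether replicates were separate cultures is not stated in the labels, so the p-values refer to the spread of these 6 libraries, which could be technical.

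Rag GTPases sit on the lysosome as heterodimers of RagA or RagB with RagC or RagD and recruit mTORC1 when amino acids are available. Folliculin (FLCN), in complex with FNIP1 or FNIP2, is the GTPase-activating protein for RagC and RagD, and RagC/D in its active state hands TFEB and TFE3 to mTORC1, which phosphorylates them and keeps them in the cytoplasm. Unphosphorylated TFEB, TFE3 and MITF enter the nucleus and bind E-boxes with the core CACGTG, called CLEAR elements in lysosomal promoters. RRAGC, RRAGD, FLCN, FNIP1, FNIP2 and GPNMB have all been described as genes these factors can activate. GPNMB encodes a transmembrane glycoprotein of endosomes, lysosomes and melanosomes that macrophages make in large amounts under lysosomal stress.

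Promoters of 9 of the 10 genes were matched by symbol in the RefSeq table (GRCh38.p14), 15 promoters in all, each reaching from 250 bases before to 50 bases after the start. RRAGD had no promoter there and was not searched. They are shown where they held an E-box that MiT/TFE factors are known to bind. CACGTG was found in the promoters of FNIP1 and RRAGC, and in 7.26% of the 35116 promoters in the table. In both genes it was part of the longer TCACGTG, which 3.71% of promoters held. The full palindromic CLEAR element was in 0.353% of promoters and in none of the 15 searched here. TCATGTG, the related E-box typical of MITF targets, was found in GPNMB and in 1 of the 2 FNIP2 promoters, against 2.92% of promoters. Both strands were searched, a TCACGTG match holds a CACGTG match, and each is a match of letters only. In the lines below capitals mark the matches, which here read CACGTGA or CACATGA on the gene's own strand. FNIP1 (chr5:131797064-131797267, minus strand) had 2 matches, at 175 and 94 bases before its start, and RRAGC (chr1:38859824-38860022, minus strand) had 1 at 112 bases. These 2 stretches end where the exons of GENCODE release 29 begin. The FNIP2 stretch (chr4:158805589-158805838, plus strand), with 1 match at 142 bases, ends at the start of that promoter's transcript. The GPNMB matches, at 123 and 62 bases before its start (chr7:23246642-23246668 and chr7:23246703-23246729, plus strand), are given with 10 bases on each side because exons of some GPNMB transcripts reach this window.
FNIP1: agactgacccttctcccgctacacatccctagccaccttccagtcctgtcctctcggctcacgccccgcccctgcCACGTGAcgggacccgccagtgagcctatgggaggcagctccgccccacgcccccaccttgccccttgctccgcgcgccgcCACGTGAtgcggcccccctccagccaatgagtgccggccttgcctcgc
RRAGC: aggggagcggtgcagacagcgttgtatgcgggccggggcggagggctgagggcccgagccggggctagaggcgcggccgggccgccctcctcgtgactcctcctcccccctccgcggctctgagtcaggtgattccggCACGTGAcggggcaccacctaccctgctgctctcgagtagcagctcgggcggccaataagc
FNIP2: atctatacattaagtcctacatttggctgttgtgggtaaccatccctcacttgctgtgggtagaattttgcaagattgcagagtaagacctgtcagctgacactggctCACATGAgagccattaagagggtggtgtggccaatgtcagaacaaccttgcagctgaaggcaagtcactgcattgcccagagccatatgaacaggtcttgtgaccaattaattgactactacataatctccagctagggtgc
GPNMB, distal match: gagtcataagCACATGAgttgtaagag
GPNMB, proximal match: ttaataccatCACATGAtcctccccga

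The deposited values are TPM multiplied by 1 factor per library so that 92 ERCC spike-in rows reach the same sum in each, and are called the spike-in scale here. The read depth behind them is unknown, so no counting interval is given, and the libraries listed 12134 to 12505 genes at a value of at least 1. The factor was 1.13 to 1.23 in sgNS and 0.832 to 1.03 in sgMETTL1.3, so the same data were also read as TPM, with genes other than spike-ins rescaled to a sum of 1000000. Over all tested genes the median log2 fold change (sgMETTL1.3 over sgNS, on log2(value + 1)) was -0.32 on the spike-in scale and 0.01 as TPM. METTL1 was lower in every sgMETTL1.3 library (5.94 to 8.28) than in any control (19.7 to 22.0). The library sgMETTL1.3 replicate 1 stood apart: its deviation from the mean of the other 2 libraries of its group correlated with the GC content of the transcripts (Spearman 0.834 over 11745 genes, which are not independent replicates). For sgMETTL1.3 replicates 2 and 3 the correlations were -0.728 and -0.741, but their deviations are from means that hold replicate 1, so they are not independent of it. For sgNS replicates 1, 2 and 3 they were 0.039, -0.335 and 0.314. Values without sgMETTL1.3 replicate 1 are given beside the results that it moves most.

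Of the 9 tested genes, GPNMB, FNIP2, FLCN, RRAGD and RRAGC rose, TFEC and MITF fell, and TFEB and TFE3 did not pass limma's test at an adjusted p of 0.05. Among all tested genes 6.40% rose and 49.3% fell on the spike-in scale. As TPM, 7 of the 9 rose (TFEB and TFE3 in addition), TFEC fell and MITF did not pass, where 24.8% of all genes rose and 25.3% fell. Without sgMETTL1.3 replicate 1 the counts were again 5 higher and 2 lower, where 6.43% of all genes rose and 61.4% fell. The median log2 fold change of the 9 was 0.30 on the spike-in scale and 0.65 as TPM. The values of 5 of the 10 genes were higher in every sgMETTL1.3 library than in every control and those of 2 were lower, against 8.66% and 53.4% of tested genes. In bulk RNA, fewer cells with a transcript and less transcript per cell cannot be told apart.

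**Figure D1:**
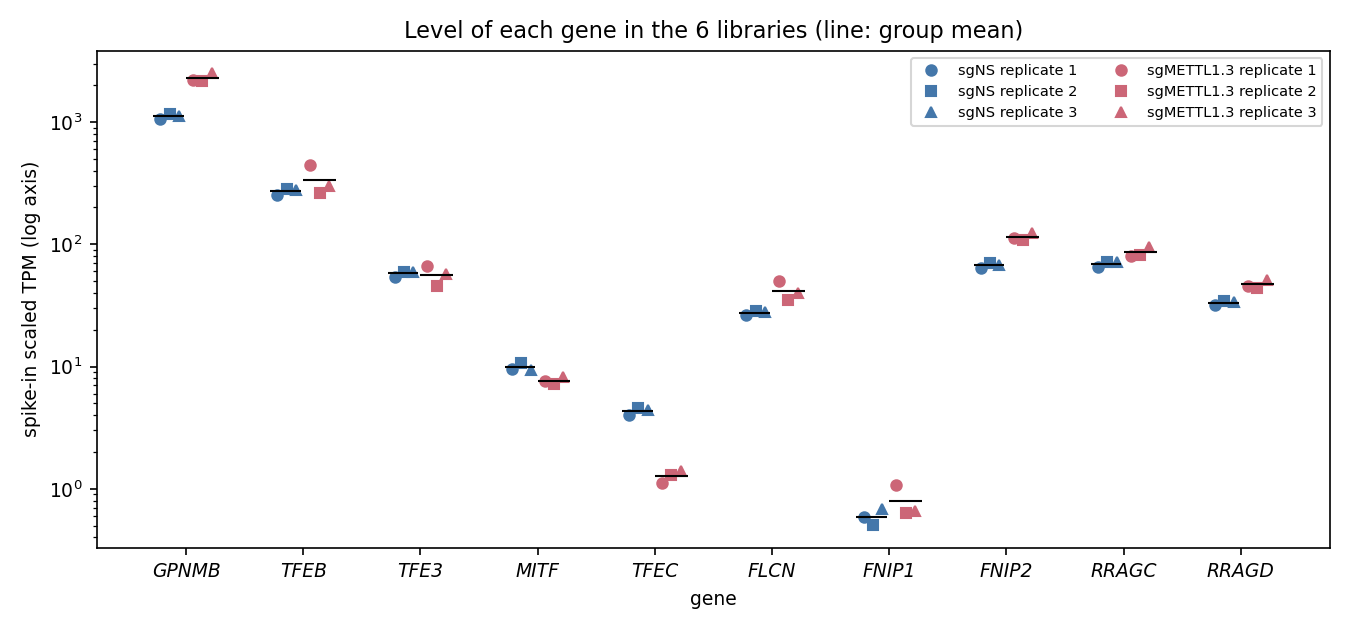
Spike-in scaled TPM (log axis) of the 10 genes in the 3 sgNS (blue) and 3 sgMETTL1.3 (red) libraries; marker shapes are replicate numbers and lines are group means. GPNMB lies between 1055 and 2501, TFEC falls from 4.33 to 1.27, and TFEB, TFE3 and FNIP1 overlap between the groups.

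GPNMB was the most abundant of the 10 genes and had the largest increase among them. Its values were 1055, 1159 and 1125 in the sgNS libraries and 2193, 2160 and 2501 in the sgMETTL1.3 libraries. The groups were far apart, with every sgMETTL1.3 library close to or above 2-fold the control level and replicate 1 in the middle of its group. The means were 1113 ± 53.1 and 2285 ± 188 (SD, n = 3), a 2.05-fold difference with log2 fold change 1.03 ± 0.0975 (SE; adjusted p = 2.62e-06 by limma). As TPM the means were 968 ± 6.26 and 2563 ± 295 (SD, n = 3), a 2.65-fold difference. The control level already exceeded that of 99.0% of tested genes, the sgMETTL1.3 level 99.7%, and the log2 fold change 99.2%. GPNMB, at chr7:23235967-23275108 on the plus strand (GENCODE release 29, GRCh38), is not overlapped by another annotated gene. Without sgMETTL1.3 replicate 1 its log2 fold change was 1.06.

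The genes whose profile over the 6 libraries lay nearest to that of GPNMB were PRDM1, SMS, SPATA12, BHLHE41 and BMF, out of 10131 candidates with a mean of at least 5. That number includes pseudogenes and genes with LOC, LINC or date-like names, which were passed over in the ranking. Distance was Euclidean, on log2(value + 1) centred on each gene's mean, and ran from 0.197 for PRDM1 to 0.224 for BMF. The profiles share the libraries and their factors, so likeness over 6 points is mostly likeness of the group difference. Their log2 fold changes were 0.97 for PRDM1, a transcriptional repressor of lymphoid and myeloid cells, 0.87 for SMS, spermine synthase, 0.91 for SPATA12, 0.88 for BHLHE41, a repressor of the E-box-binding helix-loop-helix family, and 1.10 for BMF, a pro-apoptotic BCL2 relative. SMS was by far the most abundant of the 5, at 508 ± 26.2 in the controls and 931 ± 76.0 with sgMETTL1.3 (mean ± SD, n = 3).

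TFEB was the main MiT/TFE transcript, and on the spike-in scale its difference between the groups rested on 1 library. TFEB, which drives lysosome and autophagy genes, had values of 255, 281 and 278 in sgNS and 443, 262 and 299 in sgMETTL1.3. Replicate 1 was far above the rest, and the other 2 sgMETTL1.3 libraries lay within or just above the control range. The means were 271 ± 14.5 and 335 ± 95.7 (SD, n = 3), with a log2 fold change of 0.27 (SE 0.179) that did not pass (adjusted p = 0.239 by limma). Without replicate 1 the log2 fold change was 0.05 (adjusted p = 0.718 by limma), and after a GC correction 0.04. TFEB transcripts had a mean GC content of 62.8%, the highest of the 10 genes, and replicate 1 lay 0.66 above the mean of the other 2 libraries on the log2 scale, more than for 93.0% of tested genes. As TPM the control values were 233, 236 and 238 and the sgMETTL1.3 values 449, 330 and 328, which did not overlap. That log2 fold change was 0.63 (adjusted p = 0.00484 by limma), and 0.48 without replicate 1. The TFEB gene lies at chr6:41683978-41736259 on the minus strand, and an antisense gene, AL035588.1, overlaps 13637 bases of it.

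TFE3, the close relative that shares the Rag-dependent control of TFEB, did not pass the test on the spike-in scale, and its sign depended on the scaling. Its values were 54.3, 59.5 and 59.4 in sgNS and 66.3, 45.7 and 57.6 in sgMETTL1.3, so the highest and the lowest library were both sgMETTL1.3 libraries. The log2 fold change was -0.04 (SE 0.130, adjusted p = 0.793 by limma). It was -0.17 without replicate 1, which lay 0.36 above the other 2 libraries for this gene with 57.4% GC. It was 0.10 without replicate 2, and 0.31 as TPM (adjusted p = 0.0101 by limma).

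**Figure D2:**
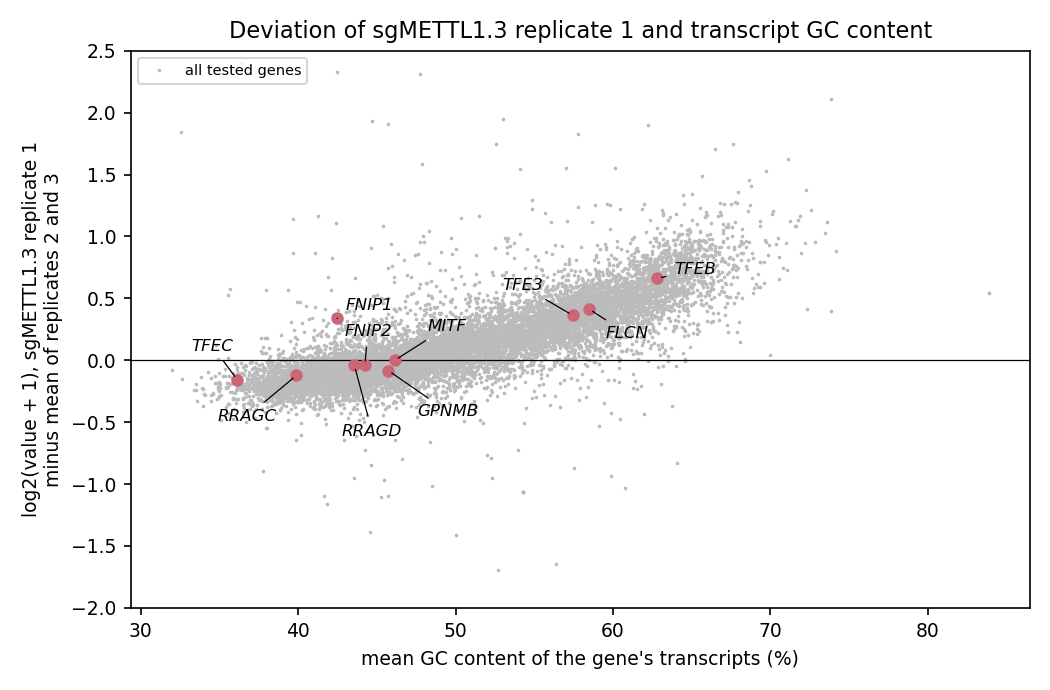
Deviation of sgMETTL1.3 replicate 1 from the mean of replicates 2 and 3 on log2(value + 1) (y) against the mean GC content of the transcripts in percent (x), for tested genes (grey) and the 10 genes described (red; FNIP1 was below the filter). TFEB, FLCN and TFE3 are the most GC-rich of the 10 and lie at 0.66, 0.41 and 0.36, while GPNMB, FNIP2, RRAGC and RRAGD lie between -0.12 and -0.04.

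MITF and TFEC, the less abundant members of the factor family, were lower in every sgMETTL1.3 library than in any control. MITF, the master factor of melanocytes that also acts in osteoclasts and mast cells, had values of 9.50, 10.8 and 9.38 in sgNS and 7.64, 7.14 and 8.18 in sgMETTL1.3. All 3 sgMETTL1.3 values were below the lowest control, by a margin of about the spread within a group. The log2 fold change was -0.33 (SE 0.120, adjusted p = 0.0316 by limma), near the median of all tested genes, and above that of 48.8% of them. As TPM it was -0.01 (adjusted p = 0.965 by limma) and the groups overlapped. The MITF call was also lost without any 1 of the 3 sgNS libraries (adjusted p = 0.0666 by limma, 0.172 and 0.0824 without replicates 1, 2 and 3) and without sgMETTL1.3 replicate 2 (0.0717).

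TFEC, the family member expressed mainly in macrophages, had the lowest log2 fold change of the 9 tested genes. It had values of 4.04, 4.55 and 4.39 in sgNS and 1.11, 1.298 and 1.40 in sgMETTL1.3, so that even the highest sgMETTL1.3 library was far below the controls. The means were 4.33 ± 0.261 and 1.27 ± 0.151 (SD, n = 3), a ratio of 0.293, and the log2 fold change was -1.23 (SE 0.131, adjusted p = 6.45e-06 by limma). At such low levels the added 1 makes this smaller than the ratio of the means. TFEC fell as TPM too (-0.98, adjusted p = 0.00049 by limma), and its log2 fold change was -1.18 without replicate 1. Only 2.76% of tested genes had a lower log2 fold change.

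The makeup of the MiT/TFE transcripts shifted towards TFEB. TFEB made up 79.0 ± 0.139% of their sum in sgNS against 83.3 ± 1.98% in sgMETTL1.3 (SD, n = 3), and every sgMETTL1.3 library, at 81.6 to 85.5%, was above the controls at 79.0 to 79.2%. The share of TFE3 went from 16.8 ± 0.0742% to 14.3 ± 1.48%, that of MITF from 2.88 ± 0.189% to 1.99 ± 0.446%, and that of TFEC from 1.26 ± 0.0166% to 0.336 ± 0.107% (SD, n = 3). None of these 4 shares overlapped between the groups, and each gave p = 0.1 in the exact two-sided permutation test, which cannot go lower with 3 against 3. The 4 shares add up to the whole in each library, so they are not separate results. The shares within a library do not depend on the spike-in factor. The share of TFEB was highest in replicate 1, which has the GC-dependent deviation, but lay at 82.9 and 81.6% in the other 2 libraries. The summed level was 343 ± 18.1 in sgNS and 400 ± 105 in sgMETTL1.3 (mean ± SD, n = 3; p = 0.5, exact permutation test), with sgMETTL1.3 libraries at both ends of the range. As TPM the sum was 298 ± 2.67 against 442 ± 72.2 (mean ± SD, n = 3; p = 0.1, exact permutation test), and the groups did not overlap.

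The genes of the folliculin complex that passed the filter, FLCN and FNIP2, both rose. FLCN, the catalytic subunit, had values of 26.4, 28.3 and 28.0 in sgNS and 50.2, 35.0 and 40.0 in sgMETTL1.3. Each sgMETTL1.3 library was above every control, with replicate 1 the highest. The means were 27.6 ± 1.05 and 41.8 ± 7.74 (SD, n = 3), with log2 fold change 0.57 ± 0.129 (SE; adjusted p = 0.00213 by limma). FLCN transcripts had 58.5% GC, and without replicate 1 the log2 fold change was 0.43 and remained past the threshold. The gene, at chr17:17212212-17237188 on the minus strand, overlaps MPRIP on the opposite strand over 5468 bases and a read-through model, AC055811.2, on its own strand over 24974 bases. Whether the counting used strand is not given in the sources used here.

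FNIP2, a folliculin partner, was more abundant than FLCN in every library. Its values were 64.4, 70.5 and 67.2 in sgNS and 112, 108 and 123 in sgMETTL1.3. The 3 sgMETTL1.3 libraries lay close together, and replicate 1 was in their middle. The means were 67.4 ± 3.10 and 114 ± 7.65 (SD, n = 3), a 1.70-fold difference, with log2 fold change 0.75 ± 0.0993 (SE; adjusted p = 3.44e-05 by limma) and 0.77 without replicate 1. FNIP2 lies at chr4:158769138-158908049 on the plus strand and overlaps C4orf45 on the opposite strand.

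FNIP1, the other partner of folliculin, was barely detected and was below the filter for testing. It was listed at 0.587, 0.503 and 0.688 in sgNS and at 1.08, 0.632 and 0.655 in sgMETTL1.3, which overlap. In a fit without the filter its log2 fold change was 0.16 (adjusted p = 0.387 by limma). FNIP2 therefore made up 99.1 ± 0.155% of the FNIP transcripts in sgNS and 99.3 ± 0.230% in sgMETTL1.3 (mean ± SD, n = 3; p = 0.3, exact permutation test). An annotated read-through gene, AC008695.1, covers 155270 bases of FNIP1 (chr5:131641714-131797063, minus strand) on the same strand, so reads could have been assigned to it.

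RRAGD and RRAGC, the RagC/D side of the Rag heterodimer and the substrates of folliculin, both rose. RRAGD had values of 31.7, 34.4 and 33.9 in sgNS and 46.0, 44.1 and 50.8 in sgMETTL1.3. The lowest sgMETTL1.3 library was well above the highest control. The means were 33.3 ± 1.43 and 47.0 ± 3.48 (SD, n = 3), with log2 fold change 0.48 ± 0.104 (SE; adjusted p = 0.00148 by limma). RRAGD lies at chr6:89364636-89412270 on the minus strand.

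RRAGC had values of 65.6, 71.7 and 71.2 in sgNS and 80.8, 81.2 and 95.4 in sgMETTL1.3. The groups did not overlap, but the gap between them was of the size of the SD within sgMETTL1.3. The means were 69.5 ± 3.39 and 85.8 ± 8.31 (SD, n = 3), with log2 fold change 0.30 ± 0.105 (SE; adjusted p = 0.0278 by limma). The call was lost without any 1 of the sgNS libraries (adjusted p = 0.120 by limma, 0.0698 and 0.0815 without replicates 1, 2 and 3) and without sgMETTL1.3 replicate 3 (0.0657). As TPM the log2 fold change was 0.65 (adjusted p = 0.00178 by limma). The gene, at chr1:38838198-38859823 on the minus strand, shares 20491 bases on its own strand with the processed transcript AL139260.2.

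**Figure D3:**
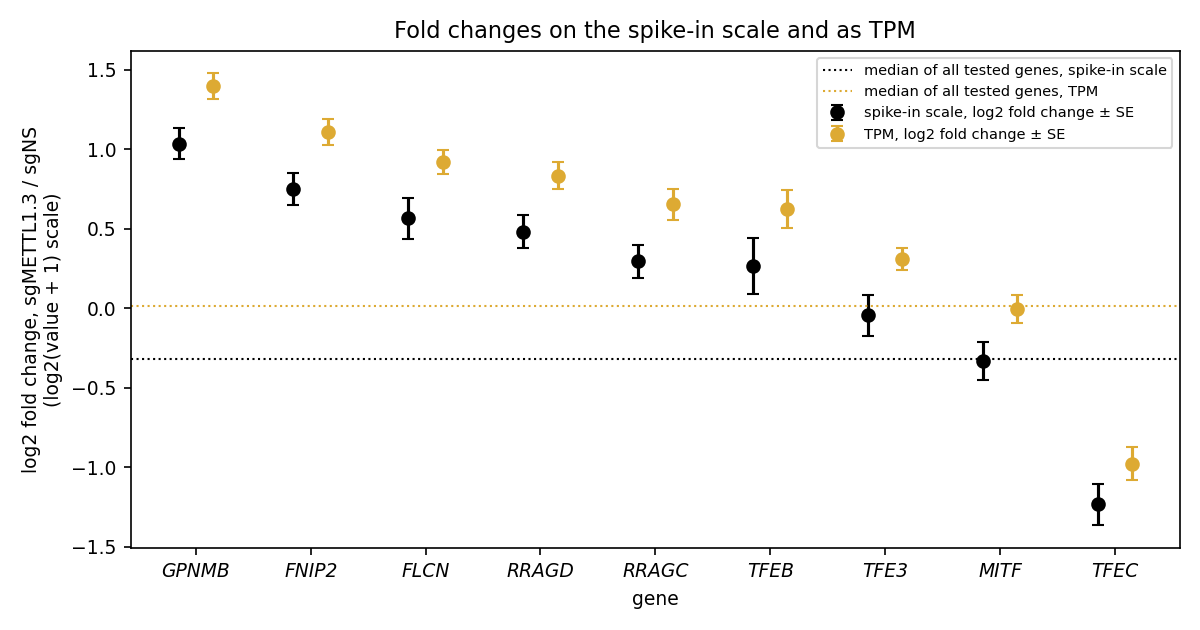
Log2 fold change of the 9 tested genes, sgMETTL1.3 over sgNS, with the SE of the fit, on the spike-in scale (black) and as TPM (yellow); dotted lines are the medians of all tested genes under each scaling, -0.32 and 0.01. The order of the genes is the same under both, from GPNMB at 1.03 to TFEC at -1.23 on the spike-in scale, and MITF lies at the median under both.

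By level per transcript length, the order in sgNS was GPNMB, TFEB, RRAGC, FNIP2, TFE3, RRAGD, FLCN, MITF, TFEC and FNIP1. The ranges of neighbours in this order did not overlap over the 3 libraries, except those of RRAGC and FNIP2. In sgMETTL1.3, FNIP2 moved above RRAGC with no overlap, and TFE3, RRAGD and FLCN overlapped in a row (56.5, 47.0 and 41.8 on average). TFEC, at 1.27, and FNIP1, at 0.788, still closed the order.

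Ratios between genes within a library, which the spike-in factor does not affect beyond the pseudocount of 1, were compared for 11 pairs. The 2 ratios to FNIP1 are not read here, because FNIP1 was listed at 0.503 to 1.08, so that the added 1 sets most of their denominator, and without it both overlapped between the groups. In 8 of the other 9 the groups did not overlap, each with p = 0.1 in the exact two-sided permutation test (the floor for 3 against 3) and 0.11 after Benjamini-Hochberg adjustment over the pairs. RRAGD gained on RRAGC by 0.19 on the log2 scale, and RRAGC and RRAGD gained on RRAGA, their heterodimer partner, by 0.34 and 0.53. As a share, RRAGD made up 32.4 ± 0.163% of the RRAGC and RRAGD transcripts in sgNS against 35.4 ± 0.780% in sgMETTL1.3 (SD, n = 3). RRAGA itself was at 55.9 ± 3.42 in sgNS against 54.1 ± 3.56 in sgMETTL1.3 (SD, n = 3) and did not pass the test (log2 fold change -0.05), but it rose as TPM (0.31, adjusted p = 0.0052 by limma).

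Within the factor family, the log2 ratio of TFE3 to TFEB was lower in sgMETTL1.3 by -0.31 and that of MITF to TFEB by -0.60. GPNMB gained on each of the 3 factors, by 0.77 on TFEB, 1.08 on TFE3 and 1.36 on MITF. The difference to TFEB varied most, since the log2 ratio of GPNMB to TFEB was 2.30 in replicate 1 and 3.04 and 3.06 in the other 2, against 2.01 to 2.05 in sgNS. The ratio of FLCN to FNIP2 overlapped between the groups (difference -0.18, exact permutation p = 0.4), with replicate 1 at -1.14 and the other 2 libraries at -1.60 and -1.59, against -1.29 to -1.23 in sgNS. Without replicate 1 the differences were -0.38 for MITF to TFEB, 1.02 for GPNMB to TFEB and -0.34 for FLCN to FNIP2. After the GC correction they were -0.31 for MITF to TFEB, -0.43 for FLCN to FNIP2 and 0.54 for RRAGC to RRAGA. That correction also gave 0.13 for RRAGD to RRAGC, 0.68 for RRAGD to RRAGA and 1.28 for GPNMB to TFE3.

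**Figure D4:**
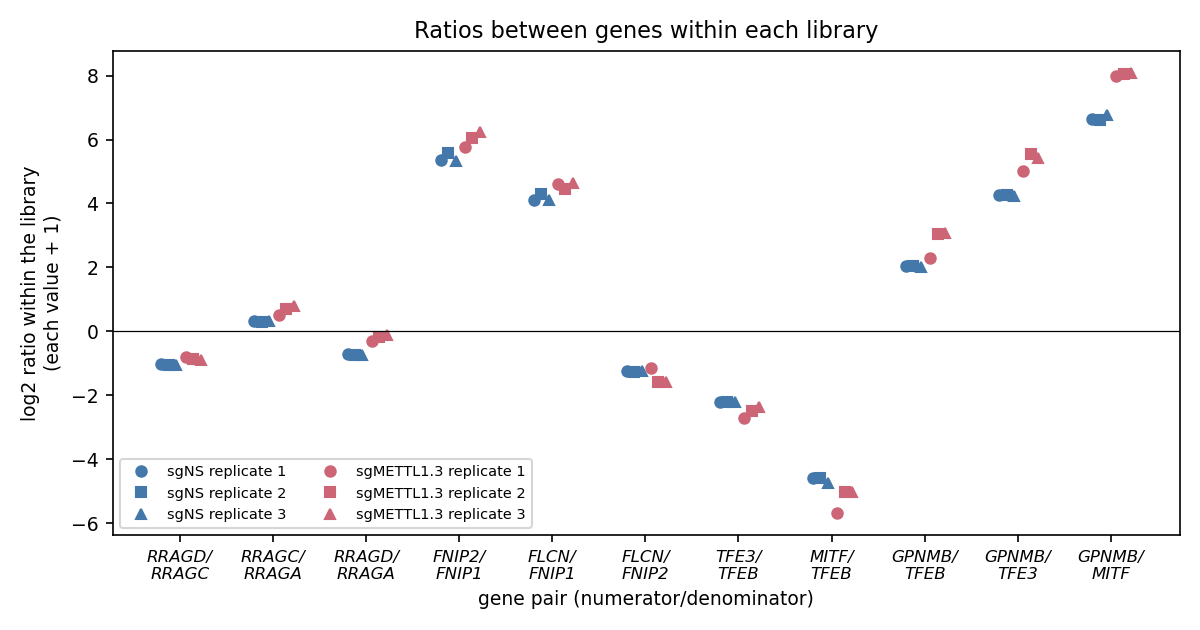
Log2 ratio between 2 genes within each library, with 1 added to each value, for 11 pairs in sgNS (blue) and sgMETTL1.3 (red); marker shapes are replicate numbers. The 3 ratios with GPNMB and the 3 of RRAGC and RRAGD lie higher in sgMETTL1.3, and replicate 1 lies apart in the ratios of MITF and GPNMB to TFEB.

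Among genes that act upstream of the Rag GTPases, SLC38A9, SESN2 and GATSL3 rose on the spike-in scale, and LAMTOR5 and SEC13 were among those that fell. In the list of Ragulator subunits and other Rag genes, 1 of 8 tested members rose and 3 fell, where 6.40% of all tested genes rose and 49.3% fell, with a median log2 fold change of -0.25 against -0.32 for all tested genes. LAMTOR5, a subunit of the Ragulator scaffold, fell from 167 ± 9.46 to 60.8 ± 6.17 (mean ± SD, n = 3; log2 fold change -1.44, adjusted p = 4.87e-07 by limma). RRAGB (-0.47) and LAMTOR3 (-0.48) fell on the spike-in scale and did not pass as TPM. SLC38A9, the lysosomal arginine sensor, rose (0.33), and its call was lost without sgNS replicate 1 or 3 or sgMETTL1.3 replicate 3. Without sgMETTL1.3 replicate 1, 5 members fell, where 61.4% of all genes did. As TPM, 4 of the 8 rose and 1 fell, where 24.8% of all genes rose and 25.3% fell.

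GATOR1, KICSTOR and GATOR2 genes, which set the nucleotide state of RagA and RagB, had 0 of 12 members higher and 7 lower, beside 6.40% and 49.3% of all genes, with a median of -0.44. Without sgMETTL1.3 replicate 1, 10 were lower, where 61.4% of all genes were. SEC13, which serves in GATOR2, the COPII coat and the nuclear pore, fell from 273 ± 12.7 to 55.8 ± 6.56 (mean ± SD, n = 3; log2 fold change -2.28, adjusted p = 2.5e-08 by limma). SEH1L, which is also a nuclear pore protein, fell (-1.18), as did the GATOR2 gene MIOS (-0.91) and the KICSTOR gene C12orf66 (-0.82). As TPM, 2 members rose and only these 4 fell, where 24.8% of all genes rose and 25.3% fell.

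Among the amino acid sensors 2 of 7 rose and 4 fell (6.40% and 49.3% of all genes), with a median of -0.38, and 2 fell without sgNS replicate 2 or 3. SESN2, a stress-induced leucine sensor, rose from 10.5 ± 0.521 to 23.6 ± 4.70 (mean ± SD, n = 3; log2 fold change 1.08), while its relatives SESN3 (-1.02) and SESN1 (-0.40) fell, as did LARS, the leucyl-tRNA synthetase (-0.95). GATSL3, the arginine sensor also called CASTOR1, was the other that rose (0.66). SESN1 did not pass as TPM, where 3 of the 7 rose and 2 fell, beside 24.8% and 25.3% of all genes. Of 9 genes of mTORC1, RHEB and TSC, 0 rose and 3 fell (median -0.20), again beside 6.40% and 49.3% of all genes. Those that fell were the inhibitor DEPTOR (-0.96), RPTOR (-0.63) and MTOR (-0.53). Without sgMETTL1.3 replicate 1, 5 fell, where 61.4% of all genes did. As TPM, 3 rose and 3 fell, where 24.8% and 25.3% of all genes did.

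Kinases, the phosphatase calcineurin, 14-3-3 proteins and XPO1, which act on MiT/TFE proteins or carry them out of the nucleus, had 2 of 20 members higher and 12 lower, near the 6.40% and 49.3% of all genes, with a median of -0.40. The 14-3-3 genes YWHAG (-1.12) and YWHAH (-0.63), the kinase GSK3B (-0.80) and the exporter XPO1 (-0.72) fell, also as TPM. MAPK3, the ERK1 kinase, rose from 16.9 ± 1.11 to 32.0 ± 8.75, and MCOLN1, the lysosomal calcium channel upstream of calcineurin, from 13.3 ± 1.06 to 21.8 ± 5.72 (SD, n = 3). Both transcripts, with 60.3 and 61.3% GC, were highest in replicate 1. Their log2 fold changes were 0.85 and 0.65, and 0.64 and 0.46 without it. As TPM, 6 members rose and 4 fell, where 24.8% of all genes rose and 25.3% fell.

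Lysosome genes with CLEAR elements were the list in which most members rose. Of 27 tested, 16 rose and 2 fell, 59.3% higher against 6.40% of all tested genes, with a median log2 fold change of 0.36 against -0.32. The list was known to hold genes that rise in these data, so its direction is a description. CTSA, the protective protein of lysosomal glycosidases, rose from 116 ± 6.43 to 277 ± 41.7 (mean ± SD, n = 3; log2 fold change 1.24, adjusted p = 2.54e-06 by limma). The protease gene CTSB (0.93) and the carboxypeptidase gene SCPEP1 (0.84) rose as well. Of the proton pump genes, ATP6V1H (0.76), ATP6V0D1 (0.67), ATP6AP1 (0.52), ATP6V1B2 (0.40) and ATP6V0E1 (0.32) rose, while ATP6V1A, a catalytic subunit, fell from 148 ± 6.42 to 91.97 ± 10.1 (SD, n = 3). GLA, alpha-galactosidase, was the other that fell (-0.99). Without sgMETTL1.3 replicate 1, 17 rose and 2 fell, where 6.43% and 61.4% of all genes did. As TPM 26 of 28 rose and 2 fell, where 24.8% and 25.3% of all genes did.

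Autophagy genes regulated by TFEB had 3 of 12 tested members higher and 5 lower, where 6.40% and 49.3% of all genes were, with a median of -0.07. Without sgMETTL1.3 replicate 1, 2 were higher and 5 lower, where 6.43% and 61.4% of all genes were. MAP1LC3B, an LC3 gene of the autophagosome, fell from 156 ± 5.41 to 73.4 ± 5.65 (mean ± SD, n = 3; log2 fold change -1.08). Its relative GABARAPL1 (0.84) and the cargo receptor gene SQSTM1 (0.72) rose, and GABARAP was the other that did (0.27, and 0.23 without sgMETTL1.3 replicate 1, where adjusted p = 0.0503 by limma). UVRAG fell (-0.50) but did not pass as TPM, where 7 of 12 members rose against 24.8% of all genes, and 1, MAP1LC3B, fell.

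**Figure D5:**
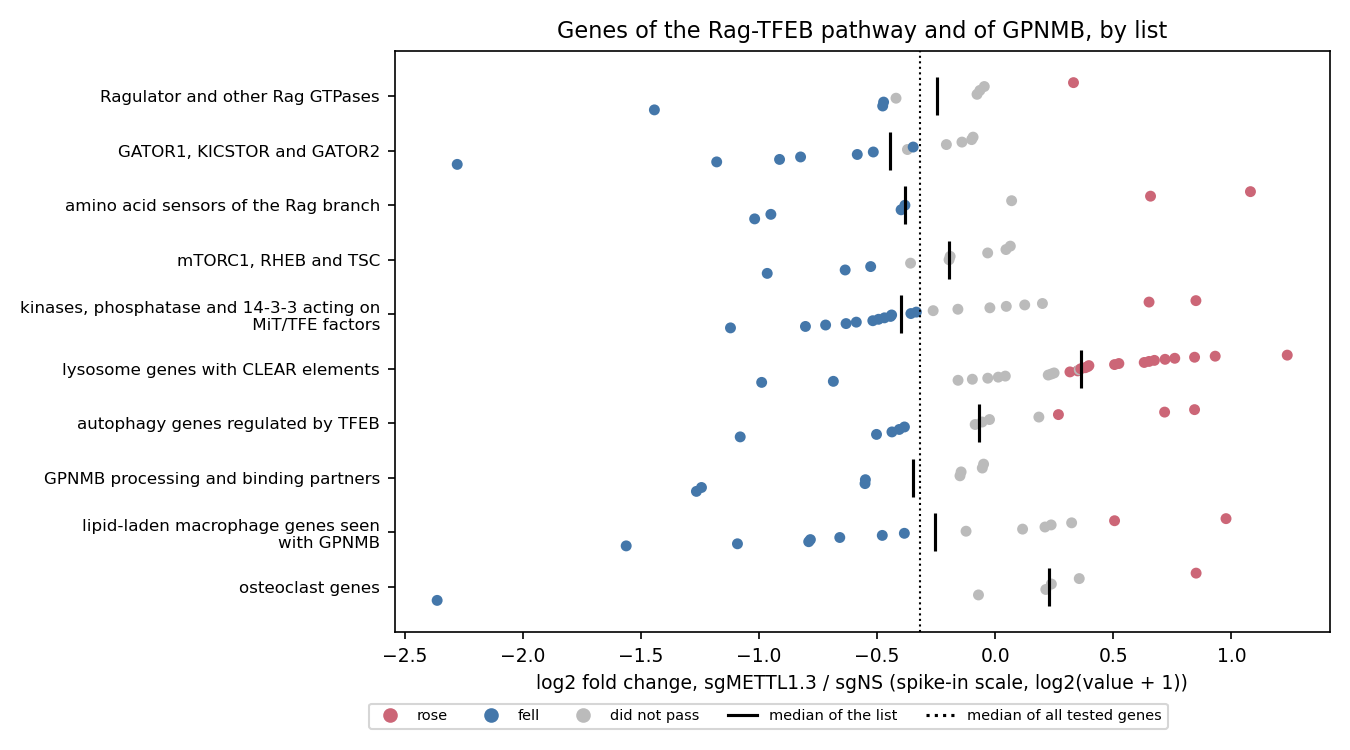
Log2 fold change (x, spike-in scale) of each tested gene in 10 lists (rows; height within a row only separates points), coloured by the outcome of limma's test; solid bars are list medians and the dotted line is the median of all tested genes, -0.32. The CLEAR list has 16 red points and a median of 0.36, while the GATOR and KICSTOR list has none.

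Of 8 tested genes whose proteins process or bind GPNMB, 0 rose and 4 fell, which is near the 6.40% and 49.3% of all tested genes. Their median of -0.35 was also close to that of all genes. CD44, a surface receptor reported to bind GPNMB, fell from 96.6 ± 6.07 to 40.3 ± 3.96 (mean ± SD, n = 3; log2 fold change -1.24, adjusted p = 1.43e-06 by limma), and the integrin gene ITGAV fell (-1.26). The syndecan gene SDC4 and ADAM10, a protease that sheds GPNMB, fell (both -0.55) and did not pass as TPM, where 2 of the 8 rose and 2 fell (24.8% and 25.3% of all genes).

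Of 14 tested genes seen together with GPNMB in lipid-laden macrophages, 2 rose and 7 fell, near the 6.40% and 49.3% of all tested genes, with a median of -0.25. The fatty acid-binding protein genes FABP5 (-1.09) and FABP4 (-1.56), the scavenger receptor gene CD36 (-0.78) and SPP1, osteopontin (-0.79), fell, also as TPM. LGALS3, galectin-3, rose (0.98), with values of 348, 170 and 196 in sgMETTL1.3 against 105 to 123 in sgNS. CTSD, a lysosomal protease whose transcripts have 63.2% GC, rose (0.51), with 5453 in sgMETTL1.3 replicate 1 and 3290 and 3867 in the other 2 libraries, against 2758 to 3015 in sgNS. Without replicate 1 the log2 fold changes were 0.67 for LGALS3 and 0.30 for CTSD, both still past the threshold, and after the GC correction that of CTSD was 0.27. Of the 2 that rose, 0 remained past the threshold without sgNS replicate 1 or 2, and 1 without sgNS replicate 3 or sgMETTL1.3 replicate 3, while 5 rose without sgMETTL1.3 replicate 2. TREM2, APOC1, LPL, ABCA1 and ABCG1 were below the filter. As TPM, 5 of 13 rose and 4 fell, where 24.8% and 25.3% of all genes did.

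Of 7 pigment genes that MITF drives in melanocytes 2 were tested, and neither passed. DCT was at 15.8 and 14.9 in the group means and MLANA at 1.63 and 1.40, while TYR, TYRP1 and OCA2 were at or near 0. Of 6 tested osteoclast genes that MiT/TFE factors can drive, DCSTAMP, a cell fusion gene, fell from 47.4 ± 3.17 to 8.40 ± 0.157 (mean ± SD, n = 3; log2 fold change -2.36), and OSTM1, a lysosomal chloride channel subunit, rose (0.85). So 1 rose, 1 fell and 4 did not pass, where 6.40% of all tested genes rose and 49.3% fell. The number that rose was 2 without sgMETTL1.3 replicate 1, where 6.43% of all genes rose, and 3 without sgMETTL1.3 replicate 2. As TPM 4 rose and 1 fell, where 24.8% of all genes rose and 25.3% fell.

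The myeloid identity of the line was checked against 11 markers. Of these, 9 were detected, among them CD33, CD68 and SPI1, and MPO and ELANE were below the filter. Their summed level was 1313 to 1396 in sgNS and 754 to 1034 in sgMETTL1.3, so that it fell while GPNMB rose, and 0 of the 9 tested rose and 6 fell, where 6.40% and 49.3% of all genes did. Without sgMETTL1.3 replicate 1, 8 fell, where 61.4% of all genes did. As TPM 1 of the 9 rose, CD68 (0.31, adjusted p = 0.00189 by limma), and 4 fell, where 24.8% and 25.3% of all genes did. LYZ, lysozyme, accounted for most of the fall in the summed level, going from 404 to 72.1 on the spike-in scale. Among markers of other cell types, HBB, HBA1, PF4, CD3D, CD3G, MS4A1, CALCR, COL1A2 and KRT18 were at 0 in all libraries, and the melanocyte markers summed to 17.0 to 19.3 in sgNS and 15.2 to 19.2 in sgMETTL1.3. NKG7, a granule gene of T and natural killer cells, was at 320 in sgNS and 193 in sgMETTL1.3, with CD3E, CD8A and GNLY near 0. Of the fibroblast and endothelial markers, which summed to 45.9 to 49.8 in sgNS and 35.9 to 40.0 in sgMETTL1.3, PECAM1, an adhesion molecule that leukocytes also carry, fell from 46.5 to 34.9 (log2 fold change -0.40, and -0.05 as TPM, which did not pass). COL1A1, a collagen gene, rose from 1.06 to 2.19 (0.62, adjusted p = 0.0039 by limma). The part of these markers in the results was not tested.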

How the data were processed

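Poly(A)-selected RNA of 6 libraries, made from 300 ng of total RNA with ERCC spike-ins per the labels' protocols, was quantified by the authors with cutadapt, STAR and RSEM on GRCh38/hg38, per the submitters' processing notes. Tool versions, annotation and strandedness are not stated (not given in the sources used here). As deposited, the signal is TPM in steps of 0.01 times a factor for each library, chosen so that 92 spike-in rows have equal sums; this was read from the file. The amount of spike-in is unknown and the scale is not tied to cell number. The steps come from rounding, so depth is unknown too. No column was left unused (0 others).

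The filter kept 12449 genes that reached 1 in 3 or more libraries, spike-ins left out. Group differences in log2(value + 1) were fitted with limma (version 3.58.1, R 4.3.3, options trend and robust), and p-values were adjusted over all these genes (Benjamini-Hochberg, 0.05). Replicate numbers did not pair the libraries, so no block was used. Ratios and shares were tested with exact two-sided permutation tests (scipy 1.17.1). GC content (94.3% of tested genes), positions and overlaps came from GENCODE release 29 (GRCh38), and promoters from RefSeq (GRCh38.p14). The GC correction removed, per library, a loess (span 0.5) of the deviation from the mean of all libraries on GC. On the spike-in scale, median prior degrees of freedom were infinite in the fits with the GC correction, with a block and without sgMETTL1.3 replicate 1. The p-values of these fits are therefore not comparable with those of the other fits. The median was 269 without sgNS replicate 3 and 9.14 in the main fit. In TPM it was 4.91 with the GC correction and 5.54 without sgMETTL1.3 replicate 1.

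The genes and lists were chosen with earlier results of these data known. No row matched 2 of the 174 list genes, and older symbols were matched for KICSTOR, CASTOR, SAMTOR and other genes. All 10 genes were named, with up to 4 members of smallest p per list among those called, further members that a description turns on, METTL1 and the 5 genes nearest to GPNMB. Lists were described by counts and medians, with no set test. In data simulated from the 12449 genes of this comparison, with 200 changed, the fit called 32% of log2 changes of 0.5, 82% of those of 1 and 11 unchanged genes. The 200 were drawn from genes above a set control level, which TFEC did not reach. They are far fewer than the 797 genes that rose and 6142 that fell here, so these rates need not hold for this comparison. In all 18 alternatives were run. The GC correction, the same on TPM, and TPM leaving out sgMETTL1.3 replicate 1 were chosen after seeing the data, and the others were planned.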

Additional observations from a re-analysis of the deposited data

How the results depend on the processing

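GPNMB, FNIP2, FLCN and RRAGD rose and TFEC fell under every alternative in which they were tested (18 each, and 17 for TFEC, which a mean of 5 or more left out). Of 42 other genes, those of smallest p in each list and the 5 nearest to GPNMB, 33 kept direction and call throughout. That count leaves out genes named for a description. Among these, RRAGA, GABARAP, LGALS3, CTSD, CD68 and PECAM1 gained or lost a call under a setting given beside them. The depth is unknown, so how far it limits MITF, TFEC and FNIP1, the lowest genes, cannot be given. The number of the 10 genes that fell was 1 in place of 2 in TPM, median-ratio and quantile scaling, under the filter on means of 5 or more, in GC-corrected TPM and in TPM when sgMETTL1.3 replicate 1 was left out. Leaving out 1 library gave 4 to 5 higher and 1 to 2 lower. Same-numbered libraries did not deviate together (correlations of -0.014, 0.005 and -0.039), and with the replicate block 4 rose and 1 fell, as MITF (adjusted p = 0.0848 by limma) and RRAGC (0.0656) lost their calls, while 814 of all genes rose and 5861 fell.

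Without the spike-ins as reference the median log2 fold change of all genes lay near 0. In TPM 3093 genes rose and 3147 fell, with median ratios 3186 and 3333, with quantiles 2978 and 3231, and in GC-corrected TPM 3629 and 3937. In TPM leaving out sgMETTL1.3 replicate 1, 4445 rose. Under the filter on means, which left fewer genes, 510 rose. Leaving out 1 library gave 534 to 1037 higher and 4880 to 7538 lower. TFE3 reversed to 0.31 in TPM, 0.31 with median ratios, 0.37 with quantiles and 0.10 when sgMETTL1.3 replicate 2 was left out (from -0.17 to 0.10 over the libraries left out). Reversals in GC-corrected TPM were TFE3 at 0.19, MITF at 0.059, LAMTOR3 at 0.047 and SESN1 at 0.095. In TPM leaving out sgMETTL1.3 replicate 1 they were 0.26, 0.059, 0.015 and 0.026 for the same 4 genes. Beyond the scaling itself, the cause was not tested.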
